A study of Mus musculus with 4 samples.

Results

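The genes described here take fatty acids into a cell, bind them inside it and activate them for metabolism. They are 10 genes fixed by name, *Lpl*, *Cd36*, *Slc27a1* and *Slc27a4* for uptake, *Fabp3*, *Fabp4* and *Fabp5* for binding, and *Acsl1*, *Acsl3* and *Acsl4* for activation, out of 22463 gene symbols measured. All 10 were found, each represented by its RefSeq transcript with the most reads over the 4 libraries, and 9 of them passed an expression threshold of 1 RPKM (the read count per length of exon and per sequencing depth) in Ad-GFP cells before or during differentiation, as did 11541 of all symbols. *Fabp3* was the member that did not pass.

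RNA-Seq was done on brown preadipocytes, the precursors of brown fat cells, isolated from the interscapular brown fat of E18.5 C57BL/6J mouse embryos and immortalized with SV40T. All cells carried *Mll3*-/- together with floxed *Mll4* alleles. Those infected with an adenovirus expressing GFP (Ad-GFP, labelled WT but with the genotype MLL3-/-) lacked the H3K4 methyltransferase MLL3, and those infected with an adenovirus expressing Cre (Ad-Cre, MLL3-/-;MLL4-/-) lacked MLL3 and MLL4, so no group had both enzymes. Undifferentiated cells (day 0, D0) and cells on the second day in adipogenic medium (day 2, D2) were sampled. Each of the 4 conditions has 1 library, so no replicate stands behind any difference below and p-values between conditions were not computed.

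The deposited counts summed to between 15831915 and 22099995 reads per library. *Mll4*, listed as *Kmt2d*, had 6304 and 8530 reads in the Ad-GFP libraries at D0 and D2, and 6316 and 5595 in the Ad-Cre libraries. *Mll3*, listed as *Kmt2c*, had 522 and 1224 reads with Ad-GFP at D0 and D2 (1.80 and 3.17 RPKM). With Ad-Cre it had 463 and 451 reads (1.41 and 1.49 RPKM). A count over the whole transcript shows neither the loss of the floxed *Mll4* exons nor whether MLL3 protein is made, so the libraries are named by their labels. For the *Mll4* deletion, the study itself reported RNA-Seq over the targeted exons, qRT-PCR and disruption of the MLL4 complex in immunoprecipitates. Adipocyte markers (*Pparg*, *Cebpa*, *Plin1*, *Adipoq* and *Cidec*) summed to 22.6 RPKM with Ad-GFP and 10.0 RPKM with Ad-Cre at D0, and to 886 and 223 RPKM at D2. *Cebpa* made up most of each sum, with 18.0 and 7.40 RPKM at D0 and 661 and 169 RPKM at D2. At D0 *Pparg* and *Cebpa* were lower with Ad-Cre, and *Plin1* had 18 reads in both libraries (0.546 RPKM with Ad-GFP and 0.481 RPKM with Ad-Cre). *Adipoq* (3 reads with Ad-GFP and 7 with Ad-Cre) and *Cidec* (19 and 28 reads) were higher with Ad-Cre, on few reads. The 5 brown adipocyte markers summed to between 0.625 and 2.24 RPKM, with at most 1 read for *Ucp1* and none for *Cidea* in a library. *Prdm16* alone of them passed 1 RPKM, with 82 and 424 reads in Ad-GFP cells at D0 and D2 (0.554 and 2.14 RPKM) and 116 and 105 reads in Ad-Cre cells (0.691 and 0.677 RPKM).

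Fatty acids reach a fat cell mostly as triglyceride in circulating lipoproteins. Lipoprotein lipase (LPL), secreted by adipocytes, releases them, the scavenger receptor CD36 and the fatty acid transport proteins FATP1 (*Slc27a1*) and FATP4 (*Slc27a4*) promote their entry, and cytosolic fatty acid binding proteins (FABPs) carry them. Long-chain acyl-CoA synthetases (ACSLs) join them to coenzyme A, after which they can be stored as triglyceride or oxidized in mitochondria, the fuel of heat production in brown fat. *Fabp4* (also called aP2), *Lpl* and *Cd36* are classical markers of adipocyte differentiation.

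RefSeq promoter windows (250 bases before to 50 bases after a transcription start, build GRCm38.p6) were available for 7 of the 10 genes, with 10 start sites between them. *Lpl*, *Fabp4* and *Fabp5* were not matched. The windows below are shown for genes with contrasting readouts. *Cd36* was almost silent at D0 and detected at D2, *Acsl1* had the most reads of all members over the libraries, and *Slc27a4* was the one member with higher RPKM in Ad-Cre cells on both days by more than its counting error. They are written 5′ to 3′ on the gene's strand, with matches to a searched motif in capitals, and they lie at chr5:17835847-17836146 (minus strand, *Cd36*), chr8:46470787-46471086 and chr8:46490716-46491015 (plus strand, the first and second start site of *Acsl1*) and chr2:29802384-29802683 (plus strand, *Slc27a4*).
Cd36: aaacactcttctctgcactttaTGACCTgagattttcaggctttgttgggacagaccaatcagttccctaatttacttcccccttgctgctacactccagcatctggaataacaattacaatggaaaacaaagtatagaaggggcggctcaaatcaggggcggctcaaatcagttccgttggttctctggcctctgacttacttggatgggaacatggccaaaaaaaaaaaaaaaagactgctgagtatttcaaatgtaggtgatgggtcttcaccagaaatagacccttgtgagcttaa
Acsl1 first start: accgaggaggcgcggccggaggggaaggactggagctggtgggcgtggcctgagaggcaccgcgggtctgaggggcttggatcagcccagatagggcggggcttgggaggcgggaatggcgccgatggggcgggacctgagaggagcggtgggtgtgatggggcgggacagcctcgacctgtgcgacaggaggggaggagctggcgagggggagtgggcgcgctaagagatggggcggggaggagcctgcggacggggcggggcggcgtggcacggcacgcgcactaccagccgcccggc
Acsl1 second start: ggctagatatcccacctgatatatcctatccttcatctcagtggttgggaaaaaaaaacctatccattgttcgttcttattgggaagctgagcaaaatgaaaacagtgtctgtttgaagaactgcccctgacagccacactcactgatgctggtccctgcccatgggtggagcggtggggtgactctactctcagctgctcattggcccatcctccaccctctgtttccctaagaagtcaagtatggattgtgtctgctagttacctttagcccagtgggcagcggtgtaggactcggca
Slc27a4: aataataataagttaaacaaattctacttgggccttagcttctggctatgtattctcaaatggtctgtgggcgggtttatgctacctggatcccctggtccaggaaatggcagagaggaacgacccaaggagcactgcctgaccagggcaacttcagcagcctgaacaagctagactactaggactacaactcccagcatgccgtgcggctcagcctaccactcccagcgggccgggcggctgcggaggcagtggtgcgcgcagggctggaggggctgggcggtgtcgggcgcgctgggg

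The motifs AGGTCA (the nuclear receptor half-site), its direct repeat with a spacer of 1 base (to which PPARγ-RXR binds), TTGCNNAA (a C/EBP core) and TATAAA (the TATA box) were searched on both strands. AGGTCA letters, which the longer repeat contains, were found in 1 of the 10 windows, that of *Cd36*, at position −228 from the transcription start, where the opposite strand matches and the printed letters are TGACCT. Over 32851 promoter windows of the same length, AGGTCA occurred in 16.3%, the direct repeat in 0.0396%, TTGCNNAA in 10.8% and TATAAA in 13.6%. The last 3 motifs were in none of the 10 windows. The *Acsl1* windows differed in base composition, with 74% G and C at the first start and 50% at the second, against 58.7% for *Slc27a4* and 43% for *Cd36*. RNA counts over the whole transcript do not show which *Acsl1* start was used.

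At D0 the 10 genes together took 3883 reads and summed to 66.6 RPKM in Ad-GFP cells, and 4569 reads and 68.8 RPKM in Ad-Cre cells. By D2 they took 88019 reads and 1988 RPKM in Ad-GFP cells, but 16092 reads and 472 RPKM in Ad-Cre cells. The summed level was thus alike in the 2 D0 libraries and several-fold apart in the D2 libraries. In a bulk library, fewer differentiated cells and less RNA per cell cannot be told apart.

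**Figure D1:**
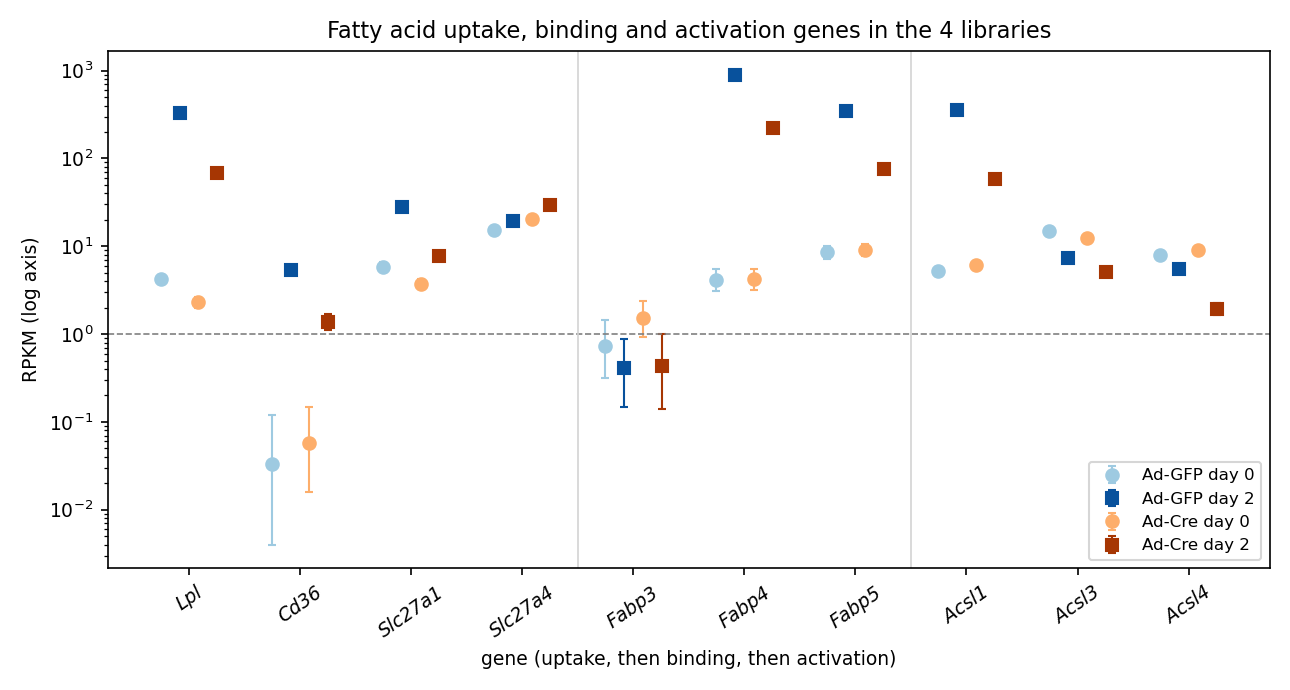
RPKM (log axis) of the 10 genes in the 4 libraries, with D0 as circles, D2 as squares, Ad-GFP in blue and Ad-Cre in orange. Bars are exact Poisson 95% intervals of the read count, and the dashed line marks 1 RPKM. *Fabp4* has the highest D2 level in both infections (893 and 223 RPKM), and *Slc27a4* and *Acsl3* have the highest levels at D0 in both.

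The uptake genes were first compared between D0 and D2 and between the infections. *Lpl* (NM_008509, chromosome 8 from 71404390 to 71431347 on the plus strand of NCBI37/mm9) had 293 reads (4.21 RPKM) in Ad-GFP cells at D0, 30347 (326 RPKM) at D2, and 182 (2.30 RPKM) and 4988 (68.3 RPKM) in Ad-Cre cells at D0 and D2. Its level was therefore 77.5-fold higher at D2 than at D0 in the Ad-GFP libraries, a log2 ratio of 6.28 (exact binomial 95% confidence interval 6.11 to 6.45), and 29.7-fold higher in the Ad-Cre libraries (4.89, interval 4.68 to 5.11). These intervals, like all those given for ratios, hold sampling error of read counts alone, so they speak of these libraries and not of the conditions. *Lpl* was lower with Ad-Cre even at D0, with an Ad-Cre over Ad-GFP log2 ratio of −0.87 (interval −1.14 to −0.60), and 4.77-fold lower at D2 (−2.25, interval −2.30 to −2.21).

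*Cd36* (NM_007643, chromosome 5 from 17287508 to 17394777, minus strand) was barely detected before differentiation, at 2 reads (0.0328 RPKM) with Ad-GFP and 4 reads (0.0579 RPKM) with Ad-Cre. At D2 it reached 435 reads (5.34 RPKM) with Ad-GFP and 88 reads (1.38 RPKM) with Ad-Cre. The D2 over D0 log2 ratios of 7.35 (interval 5.48 to 10.4) and 4.57 (interval 3.17 to 6.48) rest on these few D0 reads, and the latter became 5.21 when each ratio was corrected for its trend with the length and GC content of transcripts over all expressed symbols. The D2 libraries alone gave a level 3.88-fold lower in Ad-Cre cells (−1.96, interval −2.30 to −1.62), while the D0 libraries could not place the ratio on either side of 1 (0.82, interval −1.98 to 4.28). The gene has 5 transcripts in the files that share nearly all their reads, with between 430 and 435 reads each in Ad-GFP cells at D2. Even there, *Cd36* was the lowest of the 9 expressed members together with *Acsl4*, whose interval overlapped its own.

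The 2 fatty acid transport proteins did not behave alike. *Slc27a1* (NM_011977, chromosome 8 from 74092826 to 74110607, plus strand) had 282 reads (5.87 RPKM) and 1791 reads (27.9 RPKM) in Ad-GFP cells at D0 and D2, and 203 reads (3.72 RPKM) and 393 reads (7.80 RPKM) in Ad-Cre cells. It was 4.75-fold higher at D2 in Ad-GFP cells (log2 ratio 2.25, interval 2.07 to 2.43) and 2.09-fold higher in Ad-Cre cells (1.07, interval 0.82 to 1.32), the second of which is below the study's cutoff of 2.5-fold. Like *Lpl*, it was lower in Ad-Cre cells on both days, with a log2 ratio of −0.66 at D0 (interval −0.92 to −0.39) and a 3.57-fold lower level at D2 (−1.84, interval −2.00 to −1.68).

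*Slc27a4* (NM_011989, chromosome 2 from 29658154 to 29673042, plus strand) had 1047 reads (15.2 RPKM) and 1790 reads (19.4 RPKM) in Ad-GFP cells at D0 and D2, and 1601 reads (20.5 RPKM) and 2158 reads (29.9 RPKM) in Ad-Cre cells. It differed least between days of the 4 uptake genes, with log2 ratios of D2 to D0 of 0.36 (interval 0.24 to 0.47) and 0.54 (interval 0.45 to 0.64). It was 1.35-fold higher with Ad-Cre than with Ad-GFP at D0 (0.43, interval 0.32 to 0.54) and 1.54-fold higher at D2 (0.62, interval 0.53 to 0.71). *Slc27a1* made up 27.9% of the summed RPKM of the pair in Ad-GFP cells at D0 and 58.9% at D2, but 15.4% and 20.7% in Ad-Cre cells. FATP1 thus became the more abundant transcript of the pair in the Ad-GFP library at D2 and FATP4 remained so in the Ad-Cre library. The sum of both differed far less between the D2 libraries, at 47.3 RPKM with Ad-GFP and 37.7 RPKM with Ad-Cre.

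Among the binding proteins, *Fabp4* (NM_024406, chromosome 3 from 10204347 to 10208576, minus strand), the FABP of adipocytes, had 46 reads (4.17 RPKM) with Ad-GFP and 53 reads (4.24 RPKM) with Ad-Cre at D0. By D2 it had 13155 reads (893 RPKM) with Ad-GFP and 2575 reads (223 RPKM) with Ad-Cre, the highest RPKM of the 10 genes in both. The level was 214-fold higher at D2 in Ad-GFP cells (log2 ratio 7.74, interval 7.32 to 8.19) and 52.6-fold higher in Ad-Cre cells (5.72, interval 5.32 to 6.14, or 5.05 corrected for length and GC content). No difference between the infections was detectable at D0 at this depth (0.02, interval −0.58 to 0.62), and at D2 *Fabp4* was 4.01-fold lower in Ad-Cre cells (−2.00, interval −2.06 to −1.94).

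*Fabp5* (NM_010634, chromosome 3 from 10012548 to 10016607, plus strand), an FABP of skin that adipocytes and macrophages also make, lies near *Fabp4* on the same chromosome. It had 137 reads (8.55 RPKM) and 7478 reads (349 RPKM) in Ad-GFP cells at D0 and D2, and 164 reads (9.02 RPKM) and 1278 reads (76.0 RPKM) in Ad-Cre cells. The level was 40.8-fold higher at D2 in Ad-GFP cells (log2 ratio 5.35, interval 5.11 to 5.61) and 8.43-fold higher in Ad-Cre cells (3.08, interval 2.84 to 3.32). As for *Fabp4*, the D0 libraries did not differ beyond counting error (0.08, interval −0.26 to 0.42), whereas *Fabp5* was 4.59-fold lower in Ad-Cre cells at D2 (−2.20, interval −2.29 to −2.11).

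*Fabp3* (NM_010174, chromosome 4 from 129985839 to 129992707, plus strand), the FABP of heart and muscle, stayed near the limit of detection, with 8 and 6 reads in Ad-GFP cells at D0 and D2 (0.727 and 0.408 RPKM) and 19 and 5 reads in Ad-Cre cells (1.52 and 0.433 RPKM). Its highest level was in the Ad-Cre library at D0, where the interval of the ratio to Ad-GFP included no difference (1.07, interval −0.19 to 2.47). In Ad-Cre cells *Fabp3* was 3.51-fold lower at D2 than at D0 (−1.81, interval −3.59 to −0.34), and in Ad-GFP cells the ratio was −0.83 (interval −2.64 to 0.88). Both *Fabp3* and *Fabp5* have near copies elsewhere in the genome. Of 50-base windows along their transcripts, 89.7% for *Fabp3* and 66.0% for *Fabp5* matched another place with at most 2 mismatches, against none for *Fabp4* and between 0 and 8.35% for the other members, and how the authors treated such reads is not given in the sources used here. The values of *Fabp3* and *Fabp5* are therefore uncertain.

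The order of the 2 abundant FABPs differed between days. *Fabp5* held 63.6% of the summed FABP RPKM with Ad-GFP and 61.0% with Ad-Cre at D0, and *Fabp4* held 71.9% and 74.4% at D2. The composition of the family was alike in the Ad-GFP and Ad-Cre libraries of the same day, while its sum at D2 was 1242 RPKM with Ad-GFP and 299 RPKM with Ad-Cre.

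**Figure D2:**
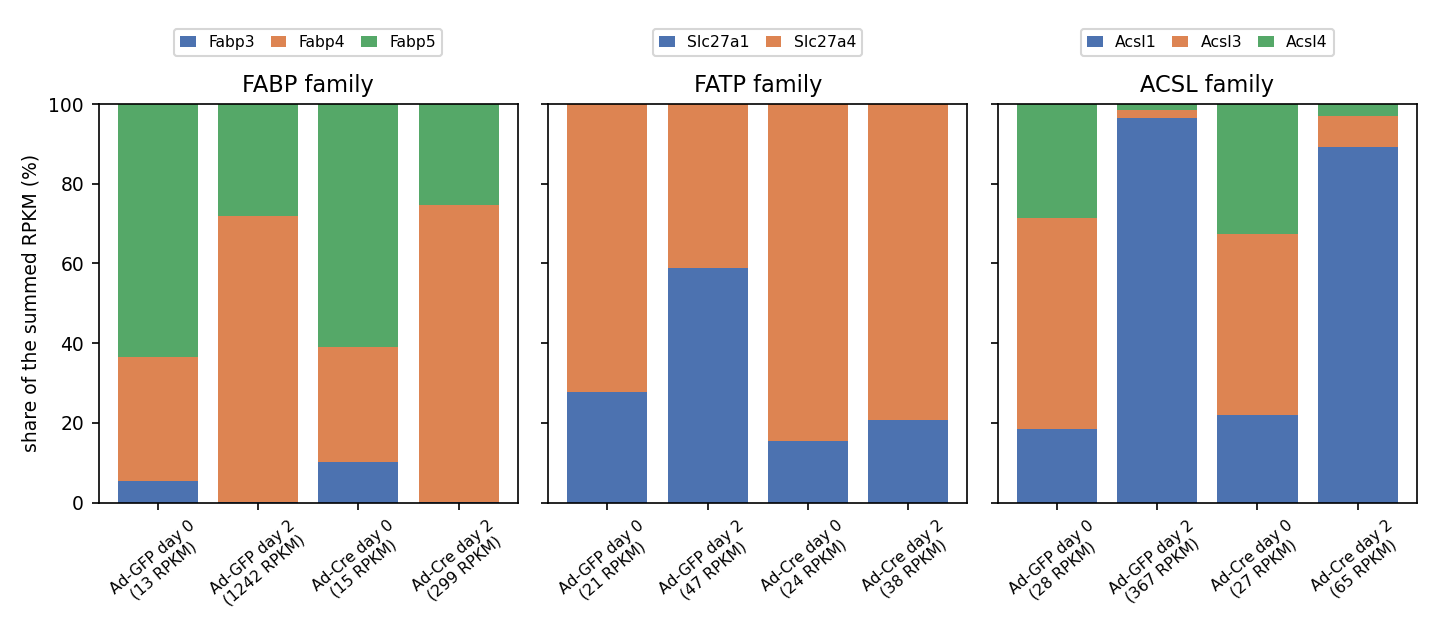
Share (%) of each gene in the summed RPKM of its family in each library, with the sum below each bar, for *Fabp3*, *Fabp4* and *Fabp5* (FABP), *Slc27a1* and *Slc27a4* (FATP), and *Acsl1*, *Acsl3* and *Acsl4* (ACSL). *Acsl1* goes from 18.6% to 96.5% of the ACSL genes shown in Ad-GFP cells, while the FATP bars show *Slc27a1* above 50% in the Ad-GFP library at D2 alone.

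Of the activating enzymes, *Acsl1* (NM_007981, chromosome 8 from 47556395 to 47621405, plus strand), the main acyl-CoA synthetase of mature adipocytes, had 346 reads (5.17 RPKM) with Ad-GFP and 461 reads (6.07 RPKM) with Ad-Cre at D0. By D2 it had 31674 reads (354 RPKM) with Ad-GFP and 4057 reads (57.8 RPKM) with Ad-Cre. The D2 level was 68.5-fold higher than D0 in Ad-GFP cells (log2 ratio 6.10, interval 5.94 to 6.25) and 9.52-fold higher in Ad-Cre cells (3.25, interval 3.11 to 3.39). At D0 *Acsl1* was slightly higher in Ad-Cre cells (0.23, interval 0.03 to 0.44), and at D2 it was 6.12-fold lower (−2.61, interval −2.66 to −2.57), the lowest ratio of the 10 genes in the RPKM values. Corrected for length and GC content it was −2.23, above those of *Slc27a1*, *Fabp5* and *Fabp4*. Its level at D2 did not differ from that of *Fabp5* beyond counting error in Ad-GFP cells, whereas in Ad-Cre cells it was below those of *Fabp4*, *Fabp5* and *Lpl*.

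*Acsl3* and *Acsl4* behaved differently from *Acsl1*. *Acsl3* (NM_028817, chromosome 1 from 78654400 to 78703562, plus strand), an enzyme of the endoplasmic reticulum and lipid droplets, had 1002 reads (14.7 RPKM) and 669 reads (7.37 RPKM) in Ad-GFP cells at D0 and D2, and 959 reads (12.4 RPKM) and 366 reads (5.14 RPKM) in Ad-Cre cells. It was lower at D2 with both viruses, at log2 ratios of −1.001 (interval −1.14 to −0.86) and −1.28 (interval −1.45 to −1.10), short of the cutoff of 2.5-fold. Its Ad-Cre over Ad-GFP ratios were small, at −0.25 (interval −0.37 to −0.12) at D0 and −0.52 (interval −0.71 to −0.33) at D2, and the latter became 0.11 when corrected for length and GC content.

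*Acsl4* (NM_207625, chromosome X from 138752536 to 138825078, minus strand), which prefers arachidonic acid, had 720 reads (7.93 RPKM) and 674 reads (5.55 RPKM) in Ad-GFP cells at D0 and D2, and 923 reads (8.96 RPKM) and 184 reads (1.93 RPKM) in Ad-Cre cells. The Ad-GFP libraries differed little between days (log2 ratio −0.51, interval −0.67 to −0.36), and the Ad-Cre library had a level 4.64-fold lower at D2 than at D0 (−2.21, interval −2.45 to −1.98). *Acsl4* was thus the one expressed member past 2.5-fold lower over time, in the Ad-Cre libraries. Between infections it was slightly higher in Ad-Cre cells at D0 (0.18, interval 0.03 to 0.32) and 2.87-fold lower at D2 (−1.52, interval −1.77 to −1.29). Corrected for length and GC content, the change over time in Ad-Cre cells was −1.47, still past the cutoff, and the D2 ratio between infections was −0.74, no longer past it. As a share of the 3 ACSL genes, *Acsl1* held 18.6% of the RPKM at D0 and 96.5% at D2 with Ad-GFP, against 22.1% and 89.1% with Ad-Cre, and *Acsl3* held the largest share at D0 with 53.0% and 45.3%. With *Acsl5* and *Acsl6* included, *Acsl3* held 40.5% at D0 with Ad-GFP and 30.7% with Ad-Cre. *Acsl5* then held 23.2% and 32.0%, so it had the largest share in the Ad-Cre library at D0.

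**Figure D3:**
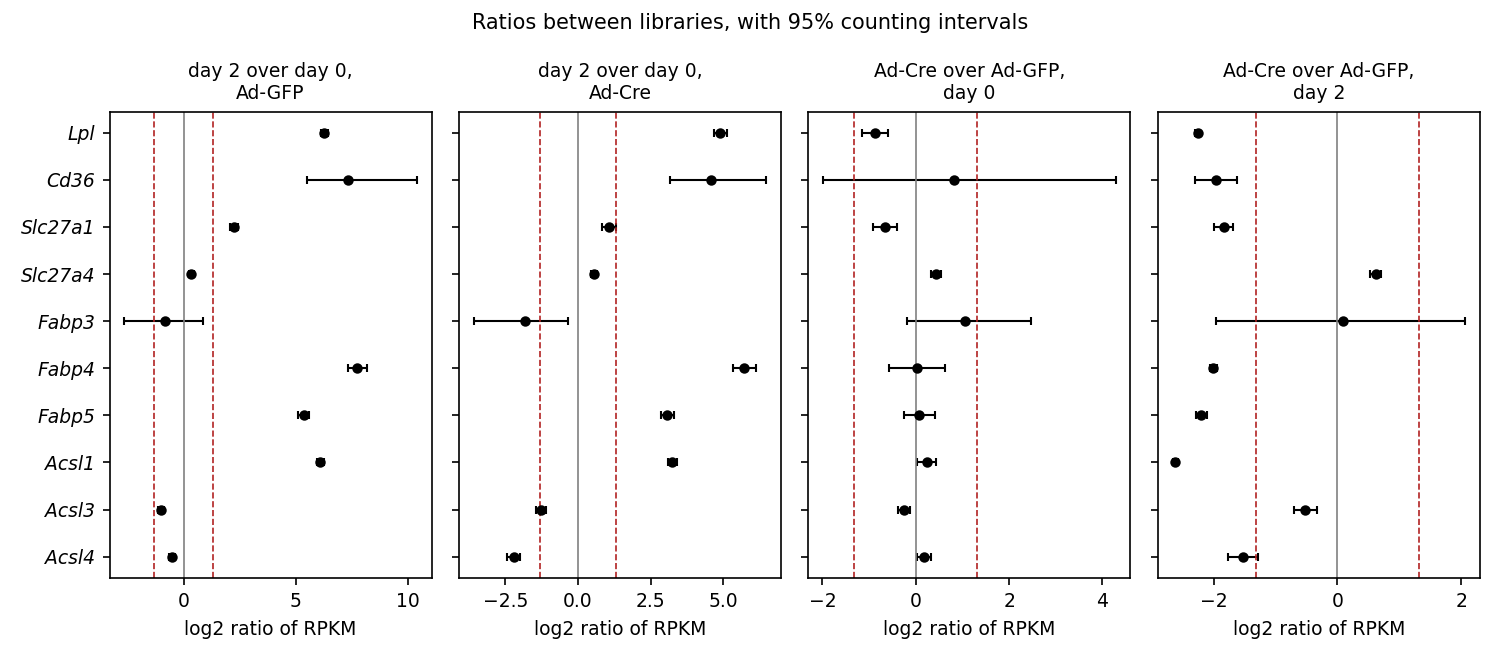
Log2 ratios of RPKM between libraries for the 10 genes in the 4 comparisons, with exact binomial 95% intervals as bars and dashed lines at 2.5-fold. Each panel has its own scale. In the right panel 7 genes lie left of the lower dashed line, *Slc27a4* lies at 0.62 and *Acsl3* at −0.52.

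Set beside all 11541 expressed symbols, 6 of the 9 expressed members (*Acsl1*, *Cd36*, *Fabp4*, *Fabp5*, *Lpl* and *Slc27a1*) were past 2.5-fold higher at D2 than at D0 in Ad-GFP cells, where 8.38% of all expressed symbols were, and none was past it in the other direction, where 12.7% were. In Ad-Cre cells 5 members were past it higher (8.66% of all symbols) and 1, *Acsl4*, lower (10.0%). The members' median log2 ratio was 5.35 with Ad-GFP and 3.08 with Ad-Cre, against 0.15 and −0.01 over all expressed symbols. The 3 members short of the cutoff in Ad-GFP cells, *Slc27a4*, *Acsl3* and *Acsl4*, were those, with *Fabp5*, that had the highest RPKM at D0 in that library. That RPKM is the denominator of the ratio, so the 2 are not independent.

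Between the infections at D0, none of the 9 members was past 2.5-fold higher (1.27% of all symbols) or lower (4.12%), and their median log2 ratio was 0.08 against −0.02 over all. At D2, 7 members were past 2.5-fold lower in Ad-Cre cells (*Acsl1*, *Acsl4*, *Cd36*, *Fabp4*, *Fabp5*, *Lpl* and *Slc27a1*), where 10.1% of all symbols were, and none was past it higher, where 8.14% were. Their median was −1.96 against −0.16. When each ratio was corrected for its trend with the length and GC content of transcripts, 5 of the 7 stayed past the cutoff, between −1.69 for *Lpl* and −2.44 for *Slc27a1*, and *Cd36* (−1.30) and *Acsl4* (−0.74), whose transcripts have the lowest GC content of the 10 at 39.0% each, did not. Scaling moved the median of all symbols, from −0.16 to 0.02 with edgeR's TMM factors in this comparison and from −0.01 to 0.17 for D2 over D0 in Ad-Cre cells when reads were divided by the sum of the deposited counts, and changed the direction of no member ratio. With TMM factors 7.07% of all symbols were past 2.5-fold lower and 10.5% higher with Ad-Cre at D2 (7.87% and 9.76% with the sum of counts), and with the sum of counts 11.4% were past it higher and 7.95% lower over time in Ad-Cre cells. The numbers of members were the same under both scalings.

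**Figure D4:**
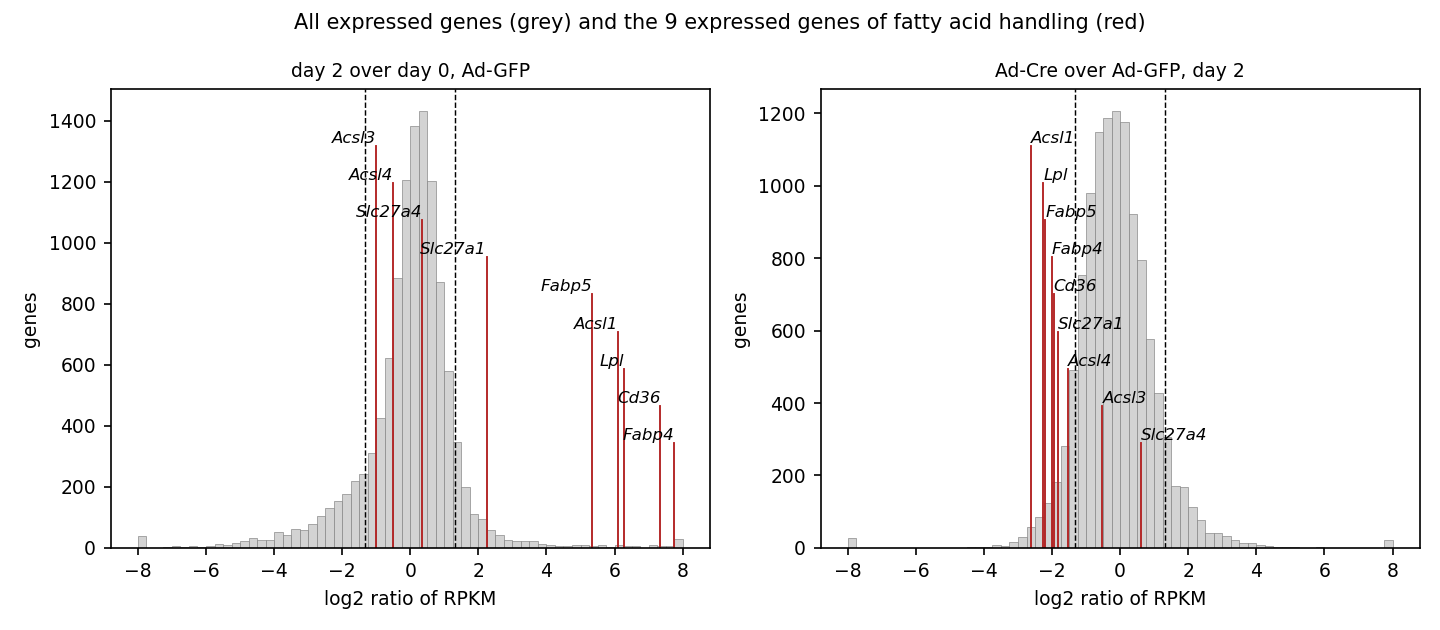
Number of expressed symbols by log2 ratio of RPKM (grey bars, with ratios beyond 8 either way in the end bars) for D2 over D0 with Ad-GFP (left) and for Ad-Cre over Ad-GFP at D2 (right). Red lines mark the 9 expressed members, their heights serve only to part the names, and dashed lines mark 2.5-fold. On the left *Fabp5*, *Acsl1*, *Lpl*, *Cd36* and *Fabp4* lie above 5, and on the right *Acsl1* lies lowest at −2.61.

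The change from D0 to D2 was then set against itself between the infections, as the ratio of the Ad-Cre change to the Ad-GFP change with an exact conditional 95% interval from the 4 read counts. The change in Ad-Cre cells was 13.9% of that in Ad-GFP cells for *Acsl1* (a log2 difference of −2.85, interval −3.06 to −2.64), 20.6% for *Fabp5* (−2.28, interval −2.63 to −1.93) and 24.6% for *Fabp4* (−2.03, interval −2.63 to −1.42). It was 38.3% for *Lpl* (−1.39, interval −1.66 to −1.11) and 44.1% for *Slc27a1* (−1.18, interval −1.49 to −0.87), both of which were lower in Ad-Cre cells at D0 too. The intervals of *Acsl1* and *Lpl* do not overlap, so these genes differed in how far the changes were apart by more than counting error.

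For *Cd36* the share was 14.6%, but the interval of its log2 difference, −6.25 to 0.06, resting on the few D0 reads, included no difference. For *Acsl4*, which was not higher at D2 in either infection, the share was 30.8% (−1.70, interval −1.98 to −1.42), and its log2 difference became −0.76 after the correction for length and GC content. *Slc27a4* (0.19, interval 0.04 to 0.34) and *Acsl3* (−0.27, interval −0.50 to −0.05) were close to no difference, and both changed sign when the ratios were corrected for their trend with transcript length and GC content, to −0.053 and 0.38. *Fabp3* was not informative (−0.98, interval −3.42 to 1.45).

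**Figure D5:**
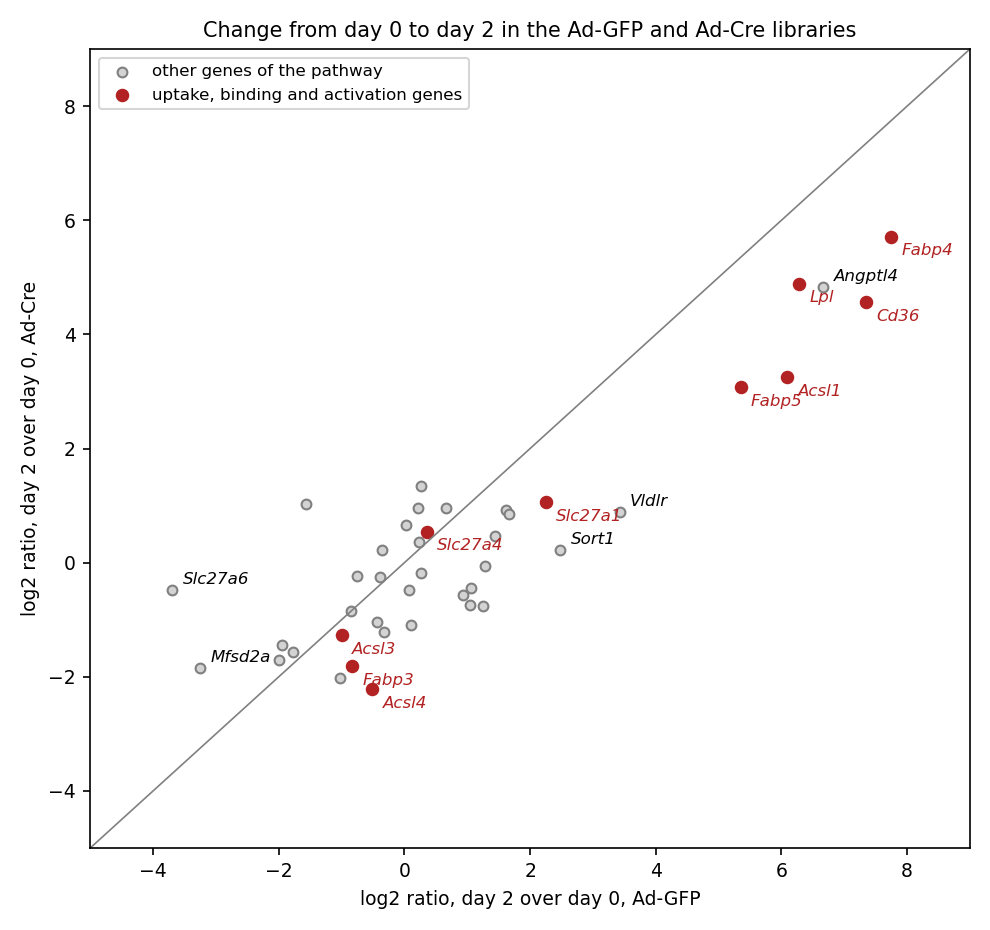
Log2 ratio of D2 to D0 in Ad-GFP cells (horizontal) against Ad-Cre cells (vertical) for the 10 members (red) and the other genes of the pathway with a finite ratio (grey), with the line of equal change. *Acsl1* lies at 6.10 and 3.25, below *Lpl* at 6.28 and 4.89, and *Slc27a4* lies by the line at 0.36 and 0.54.

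Other genes of the pathway came from 4 lists with 60 genes in all, of which 59 were in the files and 35 had more than 1 RPKM in at least 1 library. Of these 35, 7 were past 2.5-fold higher and 7 lower at D2 than at D0 in Ad-GFP cells (8.43% and 13.0% of the 11861 symbols above 1 RPKM in any library), and 4 higher and 6 lower in Ad-Cre cells (9.61% and 10.4%). With Ad-Cre against Ad-GFP, 1 was higher and 2 were lower at D0 (2.08% and 4.17%), and 2 were higher and 6 lower at D2 (9.59% and 9.87%), counting a ratio to a library with no read as past the cutoff. As many genes of these lists were thus higher as lower over time in Ad-GFP cells. *Fabp7* and *Apoc1* passed 1 RPKM in an Ad-Cre library alone.

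Of 8 expressed partners and regulators of LPL, 3 were past 2.5-fold higher at D2 than at D0 in Ad-GFP cells (8.43% of all symbols) and 4 were past it lower with Ad-Cre at D2 (9.87%). *Angptl4*, a secreted inhibitor of LPL, had 13 and 1769 reads in Ad-GFP cells at D0 and D2 and 9 and 236 reads in Ad-Cre cells, and was 5.88-fold lower in Ad-Cre cells at D2 (log2 ratio −2.56, interval −2.76 to −2.36). *Vldlr*, a receptor of triglyceride-rich lipoproteins, had 417 and 5997 reads with Ad-GFP and 528 and 902 with Ad-Cre, and was 5.22-fold lower there at D2 (−2.38, interval −2.49 to −2.28). The inhibitor of LPL and a receptor for its substrates thus had D2 ratios of the same direction as that of *Lpl* itself (−2.25).

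*Sort1* (sortilin), a sorting receptor that binds LPL, had 471 and 3507 reads with Ad-GFP and 506 and 546 with Ad-Cre, 5.04-fold lower in Ad-Cre cells at D2 (−2.33, interval −2.47 to −2.20). *Sel1l*, an endoplasmic reticulum protein needed for LPL secretion, had 1795 and 5013 reads with Ad-GFP and 2238 and 1522 with Ad-Cre. It was 2.58-fold lower in Ad-Cre cells at D2 (−1.37, interval −1.45 to −1.29), and the cutoff of 2.5-fold lies inside this interval. Genes of these lists were not examined under the other scalings or the correction for length and GC content. *Gpihbp1*, the endothelial anchor of LPL, had no read in any of the 4 libraries. The lipase maturation factors *Lmf1* and *Lmf2* were expressed and not past the cutoff, at 11.3 and 30.4 RPKM with Ad-GFP and 16.6 and 58.8 RPKM with Ad-Cre at D2.

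Among the other uptake genes, *Slc27a6* (FATP6) ran opposite to *Slc27a1*. It had 175 and 18 reads in Ad-GFP cells at D0 and D2 and 192 and 127 reads in Ad-Cre cells, and was 8.99-fold higher in Ad-Cre cells at D2 (log2 ratio 3.17, interval 2.45 to 3.97). *Mfsd2a*, a transporter of lysophospholipids, also was higher there at D2, on few reads (43 and 6 with Ad-GFP, 78 and 20 with Ad-Cre, log2 ratio 2.09, interval 0.72 to 3.69). The caveolar coat genes parted over time, with *Cav1* 3.17-fold higher and *Cavin1* 3.84-fold lower at D2 than at D0 in Ad-GFP cells. In Ad-Cre cells they were 1.81-fold higher and 2.72-fold lower. Neither was far from equal between the infections at D2 (0.12 and 0.10). At D0 *Cav1* was 1.90-fold higher with Ad-Cre (0.93, interval 0.86 to 1.00), and *Cavin1* was lower (−0.40, interval −0.44 to −0.37).

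Of the other binding proteins, *Scp2* (sterol carrier protein 2) was 3.06-fold higher at D2 in Ad-GFP cells, with 307 and 1257 reads, against 273 and 479 reads in Ad-Cre cells. *Fabp7*, the FABP of brain, had 5 and 19 reads in Ad-GFP and Ad-Cre cells at D0 and none at D2, a count of 0 that allows up to 3 reads in a library. No gene of this list was past the cutoff between the infections at D2.

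Among the other synthetases and thioesterases, *Acsl5* was lower at D2 than at D0, as *Acsl3* was, with 457 and 153 reads in Ad-GFP cells at D0 and D2 (log2 ratio −2.00, interval −2.27 to −1.73) and 797 and 225 reads in Ad-Cre cells (−1.71, interval −1.93 to −1.50). *Acss3*, an acyl-CoA synthetase of short-chain acids, had no read at D0 in either infection, 78 reads in Ad-GFP cells and 10 reads in Ad-Cre cells at D2, 6.12-fold lower in the latter (−2.61, interval −3.73 to −1.66). The mitochondrial thioesterase *Acot2* was 4.18-fold lower in Ad-Cre cells at D2 (501 and 94 reads). Its near copy *Acot1*, cytosolic, was 2.96-fold lower at D2 than at D0 in Ad-GFP cells (51 and 23 reads), and whether reads of the 2 were exchanged was not checked, so both are uncertain. *Acot7* was 3.41-fold lower and *Them4* 2.71-fold higher at D2 than at D0 in Ad-GFP cells.

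The genes whose centred profile of log2(RPKM + 1) over the 4 libraries lay nearest to that of *Acsl1*, the member with most reads, were *Serpina3n* (Euclidean distance 0.411), *Igfbp2* (0.431), *Fabp5* (0.488), the lipid droplet gene *Cidec* (0.532) and *Car3* (0.571), out of 10700 symbols with at least 100 reads in a library. *Lpl* ranked 19 in this order (0.980), *Fabp4* 62 and *Slc27a1* 172, while *Slc27a4* ranked 4269 and *Acsl3* and *Acsl4* ranked 9417 and 9343. With 4 libraries such likeness is a description.

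Several members are also used by other cells, endothelial cells and macrophages among them for *Cd36*, *Fabp4* and *Fabp5*, macrophages for *Lpl*, and muscle for *Fabp3*, *Lpl* and *Slc27a1*. All 6 endothelial markers were at or under 1 RPKM in every library and summed to between 0.0536 and 0.345 RPKM. The macrophage markers *Ptprc* and *Adgre1* had no read, and the 5 measured markers summed to between 0.487 and 2.58 RPKM, mostly *Cd14*. Muscle markers summed to 18.9 and 0.520 RPKM in Ad-GFP cells at D0 and D2 and to 48.5 and 4.71 RPKM in Ad-Cre cells. Nearly all of this was *Acta1* at D0. At D2 *Acta1* had 0.364 RPKM with Ad-GFP and 3.41 RPKM with Ad-Cre, and *Des* had 0.101 and 1.26 RPKM. *Myog* had no read and *Myod1* 1 read in a single library. The muscle sum was highest in the Ad-Cre library at D0, which also had the highest *Fabp3* level, and its part in that level was not tested.

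The preadipocyte markers differed between the infections before differentiation. The 6 markers summed to 335 RPKM with Ad-GFP and 148 RPKM with Ad-Cre at D0, and to 121 and 81.0 RPKM at D2. The markers did not all follow these sums over time. In Ad-Cre cells *Pdgfrb* (123 and 41.9 RPKM at D0 and D2) and *Pdgfra* (9.72 and 6.25 RPKM) were lower at D2. There *Dlk1* (10.1 and 17.9 RPKM), *Ebf2* (4.77 and 11.1), *Cd34* (0.352 and 2.98) and *Ly6a* (0.248 and 0.871) were higher at D2. In Ad-GFP cells *Ebf2* alone was higher at D2 (9.70 and 16.1 RPKM). At D0 *Pdgfra* had 8315 reads with Ad-GFP and 1246 with Ad-Cre, *Dlk1* 10525 and 859, *Ebf2* 724 and 404, *Cd34* 500 and 18, and *Ly6a* 141 and 4, whereas *Pdgfrb* had 8371 and 13013 reads. Their part in the D2 values of the fatty acid genes was not tested. The virus, the loss of MLL4 and any difference between the cultures cannot be told apart with 1 library per condition.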

How the data were processed

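RNA-Seq of brown preadipocytes was analysed, with 1 library for each of 4 conditions taken from the labels. Reads of 50 bases were processed by the authors with the Illumina Analysis Pipeline, aligned to NCBI37/mm9 and counted on exons of RefSeq transcripts. The deposited count per transcript is a whole number without normalization. The deposited RPKM was computed by the authors by dividing the count by transcript length and by sequencing depth. The aligner version, strand and treatment of reads with several matches are not given in the sources used here.

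The members, gene lists, named genes and settings were chosen with earlier results of these data known. Named genes were all members and each listed pathway gene above 1 RPKM in any library and past 2.5-fold for D2 over D0 in Ad-GFP cells or between infections at D2. After the methods of the study, expressed meant RPKM above 1 in Ad-GFP cells on either day and the cutoff was 2.5-fold. Ratios used RPKM without a pseudocount. Intervals were computed with scipy 1.17.1 (95%, Clopper-Pearson for ratios of reads, Poisson for levels, conditional odds ratio for ratios of changes). TMM factors came from edgeR 4.0.16 in R 4.3.3, with no edgeR test. Tables and plots were made in Python 3.11.15 (pandas 2.3.3, numpy 2.4.6, matplotlib 3.10.9). Symbols were found for 97.8% of 29082 transcripts in a RefSeq table of GRCm38.p6, used for names alone. GENCODE vM1, annotated on NCBI37/mm9, gave coordinates, GC content and transcript sequences. Windows of 50 bases, every 10 bases, were searched for in that genome by blastn 2.17.0. The procedure was tested on simulated read counts with Poisson error alone, which hold no variation between cultures and so cannot test for it. The alternatives were 2 other scalings, 1 RPKM added to both sides, the mean over transcripts, division by the median trend over length and GC content (20 bins, 5 rounds, GC content known for 94.2% of expressed symbols), cutoffs of 2-fold and 4-fold, the interval bound past the cutoff, and 2 other expression filters. Protein sequences were not used here.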

Additional observations from a re-analysis of the deposited data

Results flagged for a closer look

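*Acsl1* and *Acsl4* had an Ad-Cre over Ad-GFP difference of opposite sign on the 2 days, each past its counting interval. For *Acsl1* the log2 ratio was 0.23 at D0 and −2.61 at D2, a difference of −2.85. For *Acsl4* it was 0.18 at D0 and −1.52 at D2, a difference of −1.70. Corrected for length and GC content, the D0 and D2 ratios were 0.05 and −0.74 for *Acsl4*, and 0.23 and −2.23 for *Acsl1*. With 1 library per condition the difference between the days was not tested beyond counting error, and both D0 ratios are small.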

How the results depend on the processing

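With 1 library per condition, no library could be left out. No paired analysis was possible because each group has a single library and the labels share no pairing. Of 80 counts of members past the cutoff under 10 alternative settings, 75 stayed within 1.5 times of the reported count. At 2-fold, 1 member was lower over time with Ad-GFP and 2 with Ad-Cre, and at 4-fold, 4 members were lower with Ad-Cre at D2. Without an expression filter, and with RPKM above 1 in any library, 2 were lower over time in Ad-Cre cells, which is *Fabp3* joining *Acsl4*. Of 200 member log2 ratios, 157 stayed inside their counting interval and 1 changed sign, that of *Acsl3* at D2. Some of the 157 could not move. The mean over transcripts repeats the value of a gene with a single transcript in the files. *Fabp3*, not expressed by the threshold, was left out of the correction for length and GC content. With 1 RPKM added, the members' median for D2 over D0 was 2.62 with Ad-GFP and 1.17 with Ad-Cre.

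The alternatives for the ratio of changes between infections were added after the data were seen. Of 50, 8 left the interval, and some of the rest could not move, for the same reasons as above. Under the division by trends over length and GC content, the log2 differences were −0.82 for *Lpl*, −1.73 for *Slc27a1*, −0.053 for *Slc27a4*, −2.69 for *Fabp5*, −2.37 for *Acsl1*, 0.38 for *Acsl3* and −0.76 for *Acsl4*, and with 1 RPKM added −1.32 for *Acsl4*. The cause was not tested. Depth limits *Cd36* at D0 and *Fabp3* throughout.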
